A study of Mus musculus with 6 samples.

Results

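Histone genes were followed in the polyadenylated RNA of mouse oocytes. Members were all listed genes whose symbol marks them as a gene of the replication-dependent histone clusters (*Hist1h* to *Hist4h*) or as a replacement variant (*H2af*, *H3f3a*, *H3f3b*, *H1f0* and *H1fx*). The pattern found 73 of the 17577 listed genes, 61 of them cluster genes and 12 replacement variants. The linker histone of oocytes, *H1foo*, and the centromeric histone *Cenpa* have other symbols and are no members. The 6 libraries came from germinal vesicle (GV) oocytes of 12-week-old C57BL/6J mice, 3 from *Bnc1*tr/tr mice and 3 from wild-type (WT) mice. *Bnc1*tr/tr mice are homozygous for a small deletion in *Bnc1*, the gene of the zinc finger protein basonuclin 1, that shifts the reading frame and brings in an early stop codon. The allele is present in all cells of the mouse, so follicle cells around the oocyte carry it too. According to the study's methods, littermates of a heterozygote cross were compared, oocytes of this age were collected after pregnant mare serum gonadotropin, and each cDNA was made from a single oocyte with an oligo-dT primer (a modified Smart-seq2). The labels do not say whether the libraries of a group came from separate mice, so p-values measure the spread between these libraries.

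Nucleosomes are built from core histones H2A, H2B, H3 and H4, and H1 binds the DNA between them. Cluster genes are mostly free of introns and are expressed in S phase, and their mRNA as a rule ends in a conserved stem-loop, bound by SLBP, in place of a poly(A) tail. Replacement variants have introns or an ordinary poly(A) tail and are made throughout the cell cycle, and the growing oocyte, which does not replicate its DNA, stores histone mRNA and protein for the embryo. An oligo-dT primer reads a cluster gene through those of its transcripts that carry a poly(A) tail or an A-rich stretch.

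The annotation shows in which members an annotated transcript holds the stem-loop. In GENCODE M21 (GRCm38), 42 members had a match to the 16-base stem-loop after the stop codon of a coding transcript, against 99 of 21877 coding genes (0.453%) with a match anywhere in a transcript. In 18 cluster genes the transcript stopped within 60 bases of the stem-loop, and in 23 cluster genes and the replacement variant *H2afx* a transcript ran on past it. The 6 remaining cluster genes with a 3′ UTR and 9 replacement variants had no match. A further 14 cluster genes and 2 replacement variants had no annotated 3′ UTR in which to find one. Stem-loops beyond an annotated end were not searched for. The following sequences, from genes described below, show the stem-loop in capitals with 5 bases on either side, as DNA on the strand of the gene. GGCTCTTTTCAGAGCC was the form of 22 members.
Hist2h2aa1 (chr3:96246032-96246047, plus strand): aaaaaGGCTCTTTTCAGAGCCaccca
Hist1h2bk (chr13:22036300-22036315, plus strand): ccaaaGGCTCTTTTAAGAGCCactaa
Hist2h3c2 (chr3:96238485-96238500, minus strand): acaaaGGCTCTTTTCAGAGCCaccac
Hist1h3g (chr13:23535889-23535904, plus strand): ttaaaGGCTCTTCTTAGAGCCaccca
Hist1h1e (chr13:23621782-23621797, minus strand): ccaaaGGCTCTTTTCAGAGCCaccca
Hist4h4 (chr6:136803998-136804013, minus strand): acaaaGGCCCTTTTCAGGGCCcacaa
H2afx (chr9:44335240-44335255, plus strand): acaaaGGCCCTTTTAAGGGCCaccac
The transcript ended 35 bases after the stem-loop in *Hist2h2aa1*, 30 in *Hist1h2bk* and 47 in *Hist1h3g*, and ran on for 377 bases in *Hist2h3c2*, 1153 in *Hist1h1e*, 2445 in *Hist4h4* and 822 in *H2afx*.

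The authors deposited FPKM (fragments scaled to transcript length and library size), so levels are per length and relative to the rest of the library. *Bnc1* was at 9.04, 6.51 and 5.83 FPKM in *Bnc1*tr/tr and 13.2, 12.5 and 16.2 FPKM in WT, a log2 fold change of -0.89 ± 0.20 (SE, adjusted p = 0.0090). Depth was read off the spacing of low values and lay between 12.25 and 21.05 M fragments, at which 3 fragments on a transcript of 400 bases were worth 0.713 to 1.05 FPKM. The oocyte label held: 17 of 17 oocyte markers passed the filter, 1 called higher (*Mos*) and 2 lower (*Zp2* and *Nlrp5*), with summed levels of 18900 to 21000 FPKM in *Bnc1*tr/tr and 16700 to 22300 FPKM in WT. Markers of other ovarian cells were also present and some moved with genotype. The sum of 15 listed granulosa or cumulus markers was 363 to 428 FPKM in *Bnc1*tr/tr and 200 to 328 FPKM in WT. Most of it was *Serpine2*, with means of 334 and 242 FPKM, not called (0.48, adjusted p = 0.12). Of the tested markers 3 of 7 were called higher (*Fshr*, *Kitl* and *Cyp11a1*), and *Inha* went the other way, not called (-1.11, adjusted p = 0.24). Over all tested genes, 24.1% were called higher and 7.68% lower. The sum of 6 theca or stroma markers was 5.91 to 9.76 against 1.40 to 2.09 FPKM, with 1 of 1 tested called higher (*Dcn*). For 4 endothelial markers the sum was 5.38 to 8.10 against 10.1 to 11.7 FPKM, with 1 of 2 tested called lower (*Pecam1*). Most of it was *Pecam1*, with means of 4.01 and 9.11 FPKM. *Kdr* went the other way without overlap, with means of 0.903 and 0.0967 FPKM, and was not tested. *Tek* overlapped between groups, and *Cdh5* was near 0. The sum of 10 immune markers was 61.1 to 136 against 66.2 to 97.3 FPKM. Most of it was *C1qb*, with means of 60.8 and 80.9 FPKM, lower in *Bnc1*tr/tr but not called (-0.40, adjusted p = 0.16). Of the 5 tested immune markers 0 were called (3 were higher at limma's unadjusted p below 0.05). Among the untested ones, *C1qa*, *Cd3e* and *Adgre1* were at 0 in WT and above 0 in every *Bnc1*tr/tr library, with means of 1.22, 0.407 and 0.103 FPKM. *Ptprc* and *Csf1r*, also untested, overlapped between groups. *Tyrobp* and *Lyz2* were listed at 8.42 and 5.81 FPKM in *Bnc1*tr/tr replicate 1 and at 9.80 and 48.0 in replicate 2. Both were at 0 in replicate 3 and in WT. The 3 erythroid markers summed to 0 to 10.1 FPKM in *Bnc1*tr/tr and to 0 in WT. No listed marker was at 0 in all 6 libraries, but 17574 of the 17577 listed genes had a value above 0 in some library. The markers *Amh*, *Ptx3*, *Col1a2*, *Col3a1*, *Emcn*, *Hbb-bt* and *Alas2* were not among the listed genes. In the granulosa list *Foxl2*, *Amhr2* and *Lhcgr* were at 0 in all *Bnc1*tr/tr libraries. The part of these cells in the histone results was not tested. As FPKM is a share, more of a histone RNA and less of the other RNA cannot be told apart.

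Among the members, replacement variants made up most of the RNA in both genotypes. They summed to 3230, 3261 and 3473 FPKM in *Bnc1*tr/tr and 2987, 2951 and 3625 FPKM in WT, and the groups overlapped. *H3f3b* and *H3f3a*, which encode the same protein, the H3 variant H3.3, held 86.7% to 93.8% of that sum. The 61 cluster genes summed to 821, 1099 and 947 FPKM in *Bnc1*tr/tr and 795, 738 and 771 FPKM in WT. All *Bnc1*tr/tr libraries lay above all WT libraries, and the ratio of the means was 1.24, with group means of 956 ± 139 and 768 ± 28.1 (SD, n = 3). As a log2 ratio this was 0.32, and it was 0.042 with upper-quartile and 0.097 with median-ratio scaling, which divide each library by a factor. Replacement RNA was 2.97 to 3.93 times cluster RNA in *Bnc1*tr/tr and 3.76 to 4.70 times in WT, ranges that overlap. For scale, *H1foo* alone was at 8044, 7218 and 6935 FPKM in *Bnc1*tr/tr and 7548, 7981 and 6673 FPKM in WT, and it did not pass the test (log2 fold change 0.00 ± 0.16, adjusted p = 1.0). *Cenpa*, the other tested histone gene outside the symbol pattern, was not called either, at 0.12.

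Cluster RNA of WT oocytes was dominated by *Hist1h2bc*, an H2B gene. It was at 507, 463 and 490 FPKM in WT and 348, 351 and 381 FPKM in *Bnc1*tr/tr, so every *Bnc1*tr/tr library lay below every WT library. The log2 fold change was -0.43 ± 0.15 (SE) with an adjusted p of 0.058, not called. After upper-quartile scaling it was -0.71 (adjusted p = 0.0099) and after median-ratio scaling -0.66 (adjusted p = 0.014), called lower, and over all alternatives its adjusted p lay between 0.0099 and 0.14. *Hist1h2bc* (chr13:23684199-23692908, plus strand) is the 1 member with a splice after the stop codon, and its 3′ UTR has no stem-loop match. It held 62.8% to 63.8% of the cluster sum in WT and 31.9% to 42.4% in *Bnc1*tr/tr. Without it, the other 60 cluster genes summed to 473, 748 and 566 FPKM in *Bnc1*tr/tr against 288, 275 and 281 FPKM in WT, a ratio of means of 2.12. *Bnc1*tr/tr replicate 2 was the highest library in this sum.

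**Figure D1:**
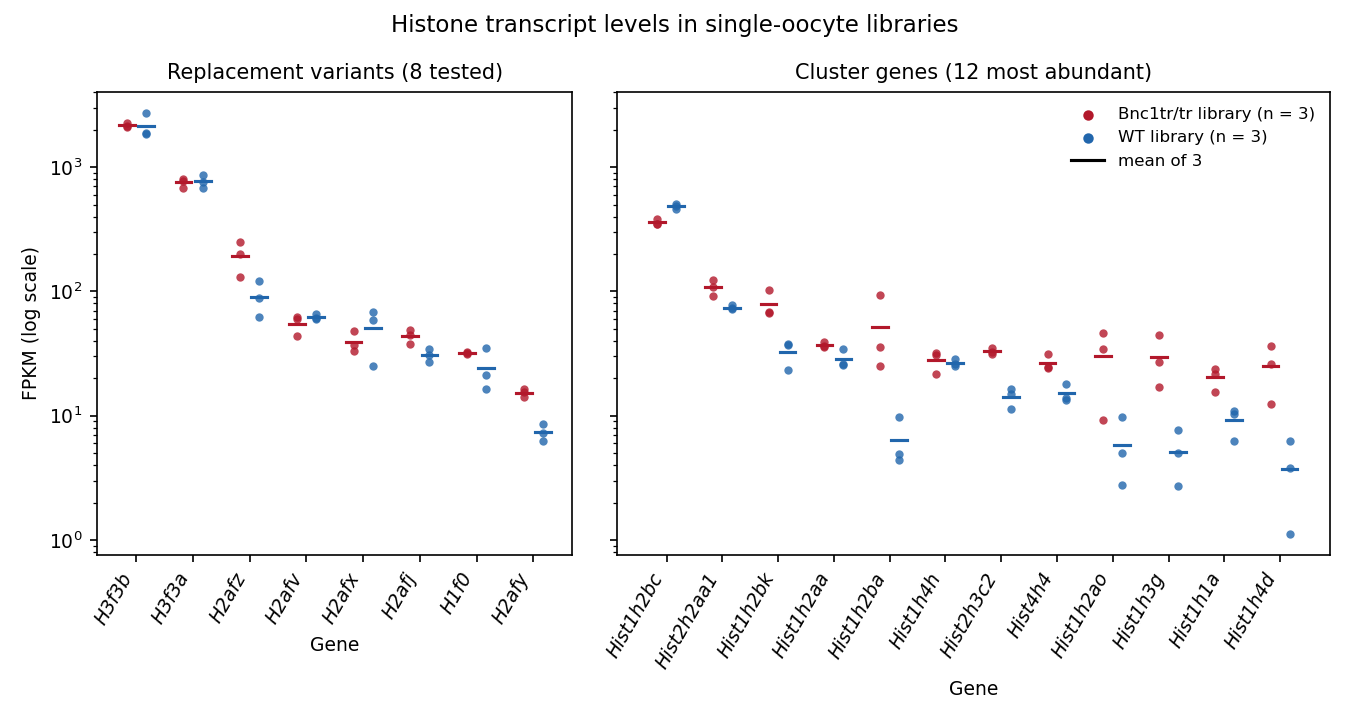
FPKM on a log axis of the 8 tested replacement variants and the 12 most abundant cluster genes, with a point for each *Bnc1*tr/tr (red) and WT (blue) library and a line at each mean of 3 libraries. *Hist1h2bc* lies lower in all *Bnc1*tr/tr libraries (348 to 381 against 463 to 507 FPKM), whereas *Hist1h2ba*, *Hist1h3g* and *Hist1h4d* lie higher in all of them.

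A filter kept 31 cluster genes whose level averaged 1 FPKM or more across the 6 libraries, of which 18 rose in *Bnc1*tr/tr, 0 fell and 13 did not pass the test (limma on log2(FPKM + 1), called where the adjusted p was below 0.05 and the log2 fold change above 0.5 in size). At an unadjusted p below 0.05 limma had 18 cluster genes higher and 1 lower, *Hist1h2bc*. Of all 10560 genes tested, 31.8% were called, 24.1% higher and 7.68% lower. The median log2 fold change was 0.94 over the tested cluster genes and 0.15 over all tested genes. In 18 of the 31 every *Bnc1*tr/tr library was above every WT library, and in 1, *Hist1h2bc*, below, against 32.7% and 14.1% of all tested genes. Apart from *Hist1h2bc* and *Hist1h2aa*, the tested cluster genes that were not called overlapped between groups and lay between -0.54 (*Hist1h4i*) and 0.83 (*Hist1h3e*). The filter shaped these counts and the median of 0.94. It passed 5 cluster genes with a WT mean under 1 FPKM, which so had to differ, and 1 with a *Bnc1*tr/tr mean under 1 FPKM. Among the 26 with a WT mean of at least 1 FPKM, 14 were called higher, and no share of all genes was taken at that WT level. Without *Bnc1*tr/tr replicate 2, 11 of 28 tested cluster genes were called higher and 1 lower, *Hist1h4i* (-0.79, adjusted p = 0.039). Of all 10459 genes tested without that library, 2022 were called higher and 589 lower. With no filter, 16 of 61 were called higher and 0 lower, against 15.6% and 3.83% of 17574 genes. Among members with a mean of at least 10 FPKM, 10 of 14 cluster genes were called higher and 0 lower, against 18.1% and 9.33% of 5283 genes at that level. Of 661 tested genes with transcripts under 1000 bases, 26.8% were called higher, with a median of 0.07, and 21 cluster genes of that length had 10 called higher and a median of 0.75.

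Scaling changed the split of calls. Upper-quartile scaling took the share of higher calls among all called genes from 75.8% to 50.1% and the median of all genes from 0.15 to -0.10. The cluster genes were then called higher in 14 and lower in 2 of 29 tested, the latter *Hist1h2bc* and *Hist1h4i*. Over all 10518 genes tested at that scaling, 1812 were called higher and 1804 lower. Median-ratio scaling gave 55.5% for all calls with a median of -0.05. It called 14 of 30 cluster genes higher and 1 lower, against 1925 and 1543 of all 10530 genes. Quantile normalization gave 46.8% with a median of -0.10. It called 13 of 29 cluster genes higher and 1 lower, against 1627 and 1848 of all 10565 genes.

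**Figure D2:**
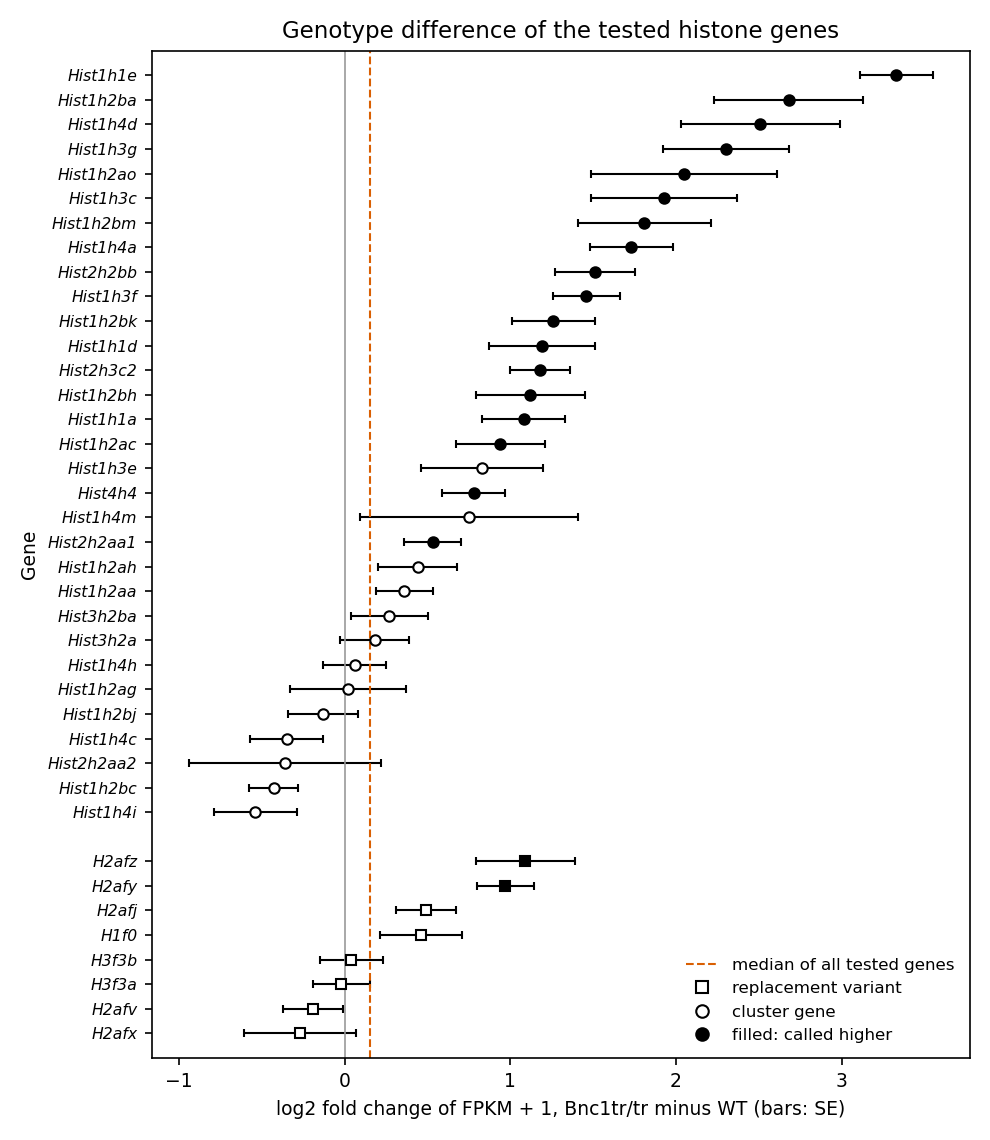
The log2 fold change of FPKM + 1, *Bnc1*tr/tr minus WT, of each tested member (cluster genes as circles, replacement variants as squares) with its SE, filled where called higher. The dashed line marks the median of all tested genes, 0.15. Cluster genes range from -0.54 (*Hist1h4i*) to 3.33 (*Hist1h1e*).

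Of the 6 linker histone genes of the cluster 3 were tested, and all 3 rose in *Bnc1*tr/tr, against 24.1% of all tested genes. Of the 3, *Hist1h1e* and *Hist1h1d* had WT means under 1 FPKM and passed the filter only through *Bnc1*tr/tr, so they had to differ. The 6 genes summed to 33.4, 44.4 and 36.5 FPKM in *Bnc1*tr/tr and 11.5, 12.0 and 6.65 FPKM in WT, a ratio of means of 3.79. *Hist1h1e* was at 13.8, 13.3 and 12.9 FPKM in *Bnc1*tr/tr and 0.360, 0.950 and 0.0800 FPKM in WT. Its log2 fold change of 3.33 ± 0.22 (SE, adjusted p = 1.3e-05) was the largest of the tested members, and its *Bnc1*tr/tr libraries differed little among themselves (13.3 ± 0.455, SD). The 3′ end of its annotated transcript overlaps the start of that of *Hist1h2be* on the same strand: 24.5% of its 31-base words also occur in *Hist1h2be*, which had means of 0.490 FPKM in *Bnc1*tr/tr and 0.270 FPKM in WT. *Hist1h1a*, which shares 0.3% of its words with other genes, was at 15.4, 23.8 and 21.7 FPKM in *Bnc1*tr/tr and 10.9, 10.4 and 6.21 FPKM in WT, with no overlap of the groups (1.08 ± 0.25, adjusted p = 0.0099). *Hist1h1d* was called at a low level, with means of 1.83 and 0.213 FPKM (1.19 ± 0.32, adjusted p = 0.020), and was not called without the filter on low values (adjusted p = 0.066) or without WT replicate 1 (adjusted p = 0.054), and in 5 of 15 alternatives it was under the filter. *Hist1h1c*, *Hist1h1b* and the testis gene *Hist1h1t* were under the filter. *H1foo* was 93.5 to 122.8 times the sum of all other H1 genes in *Bnc1*tr/tr and 160.6 to 266.1 times in WT, and these ranges did not overlap.

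Of the 16 cluster H2A genes 8 were tested and 3 rose, against 24.1% of all tested genes. Their sum was 161, 230 and 215 FPKM in *Bnc1*tr/tr and 132, 128 and 125 FPKM in WT, a ratio of means of 1.58. The most abundant was *Hist2h2aa1*, at 91.5, 124 and 109 FPKM in *Bnc1*tr/tr and 72.0, 72.9 and 77.2 FPKM in WT (0.53 ± 0.17, adjusted p = 0.043). All *Bnc1*tr/tr libraries were above all WT libraries, but 89.7% of its words occur in the gene model *Gm20634*, and the call was lost under 10 of 15 alternatives, among them upper-quartile scaling (0.26, adjusted p = 0.32). *Hist1h2ao* was at 9.16, 34.7 and 46.4 FPKM in *Bnc1*tr/tr and 4.98, 9.78 and 2.78 FPKM in WT, called higher although the groups overlap (2.05 ± 0.56, adjusted p = 0.023). It shares 93.8% of its words with *Hist1h2ap*, and its log2 fold change was 2.72 without *Bnc1*tr/tr replicate 1. The call was lost without *Bnc1*tr/tr replicate 2 (1.81, adjusted p = 0.085) or 3 (1.61, adjusted p = 0.079), without WT replicate 3 (1.68, adjusted p = 0.059) and without the filter (adjusted p = 0.089). *Hist1h2ac* rose from a WT mean of 1.11 to 2.91 FPKM (0.94 ± 0.27, adjusted p = 0.025), and its call was lost under 5 of 15 alternatives, with quantile normalization (adjusted p = 0.14), a pseudocount of 0.1 (0.059), no filter (0.067) and without *Bnc1*tr/tr replicate 1 (0.085) or 2 (0.074).

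*Hist1h2aa* and *Hist1h2ba* encode the H2A and H2B variants of the male germ line, TH2A and TH2B, which oocytes also store. The genes lie head to head, with 280 bases between their annotated starts at chr13:23934157-23934436 (GRCm38.p6). This shared upstream region is shown because both genes start from it and differ in their values. It is printed on the plus strand, where *Hist1h2aa* starts at the right end and *Hist1h2ba*, on the minus strand, at the left end (RefSeq). Capitals mark 4 matches to CCAAT, 2 matches to TATAAA and 1 match to TTTGCAT, the core of the octamer motif, counted on both strands. The octamer and its core overlap by construction.
Hist1h2ba and Hist1h2aa upstream region: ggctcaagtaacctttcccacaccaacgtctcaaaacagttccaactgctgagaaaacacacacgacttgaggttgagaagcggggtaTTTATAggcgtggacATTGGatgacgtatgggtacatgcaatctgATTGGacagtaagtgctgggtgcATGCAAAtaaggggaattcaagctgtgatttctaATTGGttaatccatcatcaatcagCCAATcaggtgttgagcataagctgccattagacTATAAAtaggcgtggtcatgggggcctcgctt
*Hist1h2ba* was at 25.2, 93.2 and 35.7 FPKM in *Bnc1*tr/tr and 4.37, 4.93 and 9.77 FPKM in WT. All *Bnc1*tr/tr libraries were higher, replicate 2 most of all, and the log2 fold change was 2.68 ± 0.45 (SE, adjusted p = 0.0021). *Hist1h2aa* was at 38.9, 35.7 and 36.5 FPKM in *Bnc1*tr/tr and 34.5, 26.2 and 25.7 FPKM in WT, so the groups again did not overlap, but the change of 0.36 ± 0.17 was not called (adjusted p = 0.15). In WT the H2A gene of the pair was the more abundant in each library, and in *Bnc1*tr/tr replicate 2 the H2B gene was. In the 250 bases before the start, CCAAT was found for 82.1% of 56 cluster genes with a RefSeq promoter, 63.6% of 11 replacement variants and 37.5% of 27025 genes. TATAAA was found for 46.4%, 9.09% and 14.3%, and the full octamer ATTTGCAT for 23.2%, 9.09% and 1.81%.

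Cluster H2B was the type whose sum did not separate by genotype, at 469, 570 and 509 FPKM in *Bnc1*tr/tr and 554, 503 and 548 FPKM in WT, with *Hist1h2bc* lower in every *Bnc1*tr/tr library. Of the 16 genes 8 were tested and 5 rose, *Hist1h2ba* among them, against 24.1% of all tested genes. *Hist1h2bk*, with a stem-loop end, was at 68.8, 102 and 67.2 FPKM in *Bnc1*tr/tr and 37.0, 23.3 and 37.7 FPKM in WT (1.26 ± 0.25, adjusted p = 0.0046), without overlap. It shares 75.3% of its words with other genes. At lower levels, *Hist1h2bm* (1.81 ± 0.40, adjusted p = 0.0086), *Hist2h2bb* (1.51 ± 0.24, adjusted p = 0.0016) and *Hist1h2bh* (1.12 ± 0.33, adjusted p = 0.030) were also called, the last lost under 7 of 15 alternatives. *Hist2h2bb* passed the filter only through *Bnc1*tr/tr. *Hist1h2bq* and *Hist1h2br* were listed with identical values in every library and share 99.0% and 93.8% of their words, so reads of these genes cannot be told apart.

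Cluster H3 genes encode the replication-coupled H3 proteins. Their sum was 62.5, 99.2 and 72.2 FPKM in *Bnc1*tr/tr and 22.9, 24.9 and 20.1 FPKM in WT, a ratio of means of 3.45. Of the tested genes 4 of 5 rose, against 24.1% of all tested genes. *Hist1h3c*, among the 4, and *Hist1h3e*, not called, passed the filter only through *Bnc1*tr/tr, so they had to differ. *Hist2h3c2* was at 31.5, 32.3 and 35.3 FPKM in *Bnc1*tr/tr and 16.3, 14.9 and 11.3 FPKM in WT (1.18 ± 0.18, adjusted p = 0.0013). *Hist1h3g* was at 16.9, 44.3 and 27.3 FPKM in *Bnc1*tr/tr and 2.72, 7.73 and 4.97 FPKM in WT (2.30 ± 0.38, adjusted p = 0.0020). In both genes the groups did not overlap, and 64.2% and 60.2% of their words are shared with other genes. *Hist1h3f* (1.46 ± 0.20, adjusted p = 0.00077) and *Hist1h3c* (1.93 ± 0.44, adjusted p = 0.0095) rose at lower levels, with WT means of 1.93 and 0.160 FPKM. *Hist1h3c* was highest in *Bnc1*tr/tr replicate 2 (8.70 FPKM, against 2.77 and 1.34 in the other two), and without that library it was under the filter and not tested. H3.3 RNA made up 96.7% to 97.8% of the H3 sum in *Bnc1*tr/tr, against 99.1% to 99.4% in WT.

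The cluster H4 genes have no replacement variant among the members. Their sum was 95.8, 155 and 115 FPKM in *Bnc1*tr/tr and 74.7, 71.0 and 70.8 FPKM in WT (ratio of means 1.69). Of the tested genes 3 of 7 rose, against 24.1% of all tested genes. *Hist4h4*, the gene with the longest stretch after its stem-loop among them, was at 24.5, 31.4 and 23.97 FPKM in *Bnc1*tr/tr and 13.9, 13.4 and 18.0 FPKM in WT (0.78 ± 0.19, adjusted p = 0.013). It was not called with upper-quartile (adjusted p = 0.084), median-ratio (0.063) or quantile scaling (0.064), nor without *Bnc1*tr/tr replicate 2 (0.051) or WT replicate 2 (0.061). *Hist1h4d* was at 12.3, 36.1 and 26.2 FPKM in *Bnc1*tr/tr and 3.81, 6.20 and 1.12 FPKM in WT (2.51 ± 0.48, adjusted p = 0.0041). *Hist1h4a* changed from a WT mean of 5.67 to 22.1 FPKM (1.73 ± 0.25, adjusted p = 0.0010). The most abundant of the type, *Hist1h4h*, overlapped between groups, at 31.1, 31.8 and 21.8 FPKM in *Bnc1*tr/tr and 28.6, 26.2 and 25.3 FPKM in WT, and was not called (0.06 ± 0.19, adjusted p = 0.84).

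**Figure D3:**
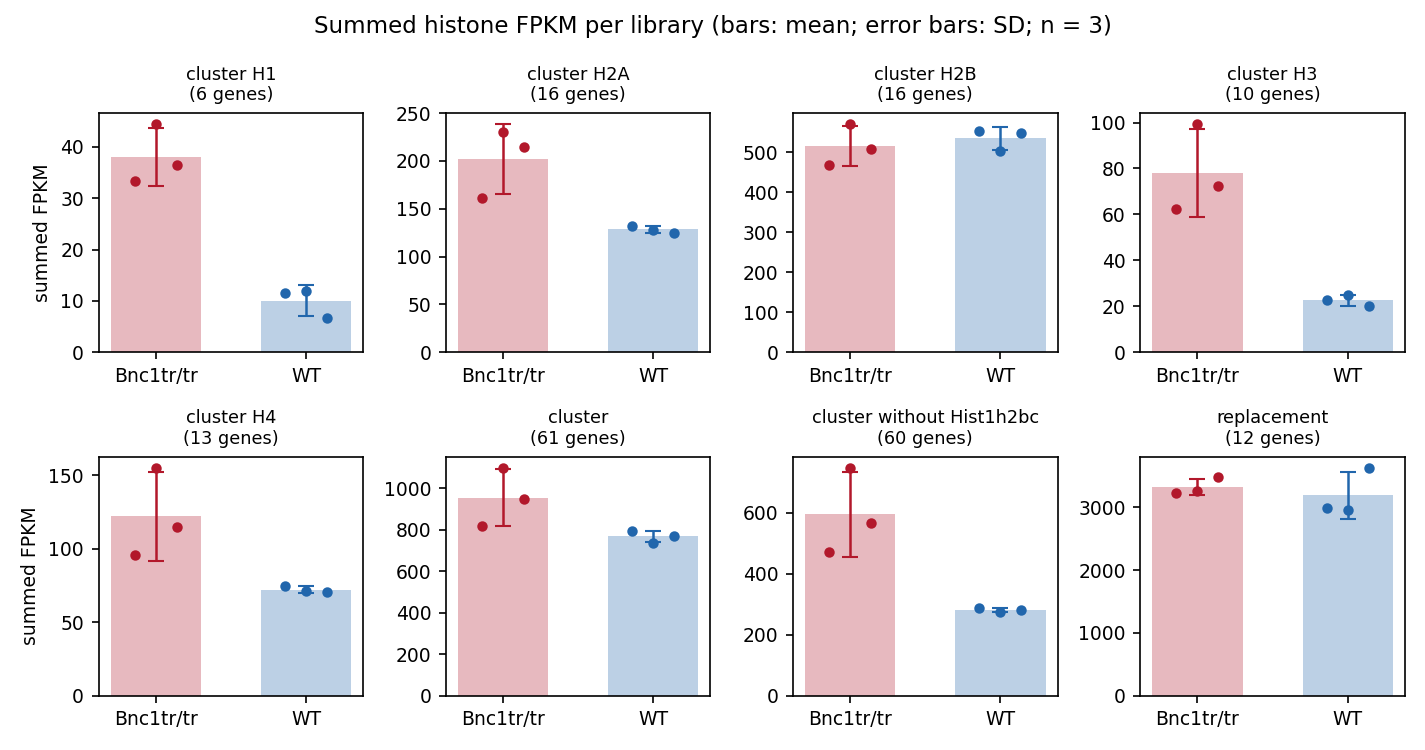
Summed FPKM per library (points), group mean (bars from 0) and SD (n = 3) of the cluster genes by histone type, of all cluster genes with and without *Hist1h2bc*, and of the replacement variants. Cluster H1, H2A, H3 and H4 separate the genotypes, while cluster H2B (469 to 570 against 503 to 554) and the replacement variants overlap.

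The 30 cluster genes under the filter were not tested. Their *Bnc1*tr/tr mean was above the WT mean in 29 and below in 1, against 69.6% above among the 7017 genes under the filter. Cluster genes listed above 0 numbered 54, 52 and 50 in *Bnc1*tr/tr and 36, 37 and 37 in WT. Over all listed genes the share above 0 was 86.8% to 89.5% in *Bnc1*tr/tr and 79.1% to 82.9% in WT, so WT libraries detected fewer genes in general, and for the cluster genes the shares were 82.0% to 88.5% and 59.0% to 60.7%. In 16 cluster genes all WT libraries were listed at 0, and in 0 all *Bnc1*tr/tr libraries were, against 9.95% and 3.37% of all listed genes with a value above 0 in the other genotype. These values lie near that of single fragments, and a listed 0 does not show absence.

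Fewer replacement variants were called. Of the 12 members 8 were tested, 2 rose, 0 fell and 6 did not pass the test (3 higher and 0 lower at limma's unadjusted p below 0.05), with a median log2 fold change of 0.25, and 3 had no overlap between groups. The share called higher, 2 of 8, was close to the 24.1% of all tested genes called higher. *H2afz*, the gene of H2A.Z, a variant found at promoters, was at 252, 130 and 201 FPKM in *Bnc1*tr/tr and 89.0, 121 and 62.1 FPKM in WT. The groups did not overlap, although *Bnc1*tr/tr replicate 2 and WT replicate 2 were close, and the log2 fold change was 1.09 ± 0.30 (adjusted p = 0.023). The adjusted p rose to 0.070 without *Bnc1*tr/tr replicate 3, 0.084 without *Bnc1*tr/tr replicate 1, 0.052 without WT replicate 3 and 0.071 without the filter. *H2afy*, which encodes macroH2A, an H2A with a large extra domain associated with silent chromatin, was at 15.5, 16.4 and 14.1 FPKM in *Bnc1*tr/tr and 7.27, 8.5 and 6.3 FPKM in WT (0.97 ± 0.17, adjusted p = 0.0026) and kept its call under every alternative run.

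The most abundant members were not called. *H3f3b* was at 2115, 2157 and 2284 FPKM in *Bnc1*tr/tr and 1859, 1878 and 2723 FPKM in WT, where replicate 3 stood above the other libraries (0.04 ± 0.19, adjusted p = 0.89). *H3f3a* was at 685, 778 and 800.1 FPKM in *Bnc1*tr/tr and 859, 764 and 676 FPKM in WT (-0.02 ± 0.17, adjusted p = 0.95). The sign of both differed between scalings, *H3f3b* being at -0.23 with upper-quartile scaling and *H3f3a* reaching 0.073 with quantile normalization. The paralogue of *H2afz*, *H2afv*, was at 43.9, 62.0 and 59.4 FPKM in *Bnc1*tr/tr and 59.7, 65.7 and 61.2 FPKM in WT (-0.19 ± 0.18, adjusted p = 0.48).

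*H2afx*, whose product is phosphorylated at DNA breaks, was at 48.0, 37.0 and 32.9 FPKM in *Bnc1*tr/tr and 68.7, 58.9 and 25.3 FPKM in WT (-0.27 ± 0.34, adjusted p = 0.60). WT replicate 3 was the low library, and without it *H2afx* was called lower (-0.70, adjusted p = 0.031). *H2afj* was at 37.9, 44.4 and 48.5 FPKM in *Bnc1*tr/tr and 27.0, 30.98 and 34.4 FPKM in WT, without overlap but not called (0.49 ± 0.18, adjusted p = 0.063). *H1f0*, a linker histone of resting cells, was at 31.7, 32.7 and 31.5 FPKM in *Bnc1*tr/tr and 16.3, 21.1 and 34.7 FPKM in WT (0.46 ± 0.25, adjusted p = 0.20). Here too WT replicate 3 stood apart, above all other libraries, and without it *H1f0* was at 0.75 (adjusted p = 0.013). *H2afy2*, a second macroH2A gene, had means of 0.680 and 1.06 FPKM, and *H2afb1*, *H2afb3* and *H1fx* had means under 1 FPKM in both genotypes, so none of these was tested.

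Level and change were then set against the annotated 3′ end. In WT, the median of the group means was 30.8 FPKM over the 9 replacement variants with no stem-loop. Among cluster genes it was 1.18 FPKM for the 18 with a stem-loop end and 0.537 FPKM for the 23 that run on past it. It was 0.421 FPKM for the 6 with a 3′ UTR and no stem-loop and 0 for the 14 without an annotated 3′ UTR. In *Bnc1*tr/tr the cluster genes that run on had a median of 2.91 FPKM and the stem-loop ends 1.73 FPKM. There the 6 with no stem-loop had 1.16 FPKM and the 14 without an annotated 3′ UTR 0.764 FPKM. Of tested genes, 10 of 15 cluster genes that run on past the stem-loop rose and 5 of 10 with a stem-loop end. So did 2 of 4 without an annotated 3′ UTR and 1 of 2 with a 3′ UTR and no stem-loop. In the latter *Hist1h1a* rose and *Hist1h2bc* did not. Over all tested genes, 24.1% were called higher. Of the 15, *Hist1h1e*, *Hist1h1d*, *Hist1h3c* and *Hist1h3e* passed the filter only through *Bnc1*tr/tr, as did *Hist2h2bb* among those without an annotated 3′ UTR, so they had to differ. Whether these shares differ was not tested. *H2afx*, the replacement variant with a stem-loop, was not called.

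**Figure D4:**
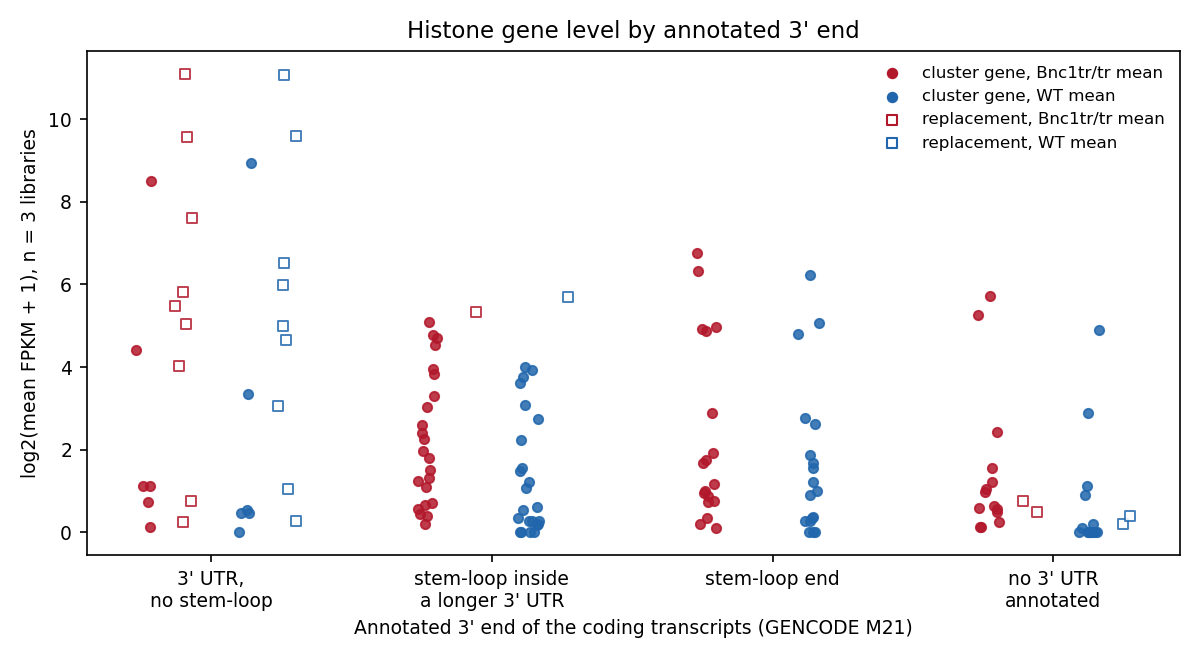
Group mean level, log2(mean FPKM + 1) over 3 libraries, of all 73 members by annotated 3′ end, in *Bnc1*tr/tr (red) and WT (blue), for cluster genes (filled circles) and replacement variants (open squares). The highest cluster gene, *Hist1h2bc*, stands among the genes with no stem-loop, at 360 and 487 FPKM, next to *H3f3a* and *H3f3b*. The 6 cluster genes with that end had medians of 1.16 and 0.421 FPKM.

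Genes that process histone mRNA or carry histone proteins were taken from lists. Of 13 tested genes for the 3′ end of histone mRNA 3 rose and 1 fell, close to the 24.1% and 7.68% of all tested genes, with a median log2 fold change of 0.08. *Slbp*, whose product binds the stem-loop, was abundant at 2299, 2180 and 2415 FPKM in *Bnc1*tr/tr and 2110, 2108 and 2009 FPKM in WT, without overlap and not called (0.15 ± 0.15, adjusted p = 0.50). *Lsm11*, a subunit of the U7 snRNP that cuts histone pre-mRNA, rose from a WT mean of 2.71 to 4.93 FPKM (0.66 ± 0.21, adjusted p = 0.038), and *Sympk*, a scaffold of the cleavage complex, from 1.97 to 3.55 FPKM (0.63 ± 0.20, adjusted p = 0.041). *Npat*, the coactivator of cluster gene transcription, was at 4.88, 3.90 and 3.80 FPKM in *Bnc1*tr/tr and 2.47, 2.12 and 1.91 FPKM in WT (0.71 ± 0.17, adjusted p = 0.012). *Zfp473*, a zinc finger protein of the U7 complex, fell, from 11.2, 9.23 and 3.99 FPKM in WT to 2.77, 2.65 and 2.08 FPKM in *Bnc1*tr/tr (-1.29 ± 0.31, adjusted p = 0.012).

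Over all tested genes, 24.1% were called higher and 7.68% lower. Of 24 tested histone chaperone and deposition genes 1 rose and 0 fell (1 higher and 3 lower at limma's unadjusted p below 0.05), with a median of 0.04. The gene was *Daxx*, which with ATRX deposits H3.3 at repeats, at 24.3, 19.1 and 17.7 FPKM in *Bnc1*tr/tr and 3.48, 4.38 and 4.78 FPKM in WT (2.03 ± 0.19, adjusted p = 6.9e-05). *Atrx* itself was lower in every *Bnc1*tr/tr library, at 35.7, 36.5 and 46.7 FPKM against 70.4, 66.2 and 47.0 FPKM, and was not called (-0.60 ± 0.21, adjusted p = 0.053). Of the 12 DNA replication and proliferation genes 0 were called (3 higher and 3 lower at limma's unadjusted p below 0.05), with a median of 0.22 and summed levels of 416 to 498 FPKM in *Bnc1*tr/tr and 411 to 459 FPKM in WT. Their values ran from -0.53 (*Mcm6*, adjusted p = 0.074) to 1.28 (*Ccne1*, adjusted p = 0.084). *Mcm6*, *Mki67* (-0.45, adjusted p = 0.079) and *E2f1* (-0.36, adjusted p = 0.10) were lower in every *Bnc1*tr/tr library than in any WT library, and *Ccna2* (0.56, adjusted p = 0.067) was higher in every one.

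**Figure D5:**
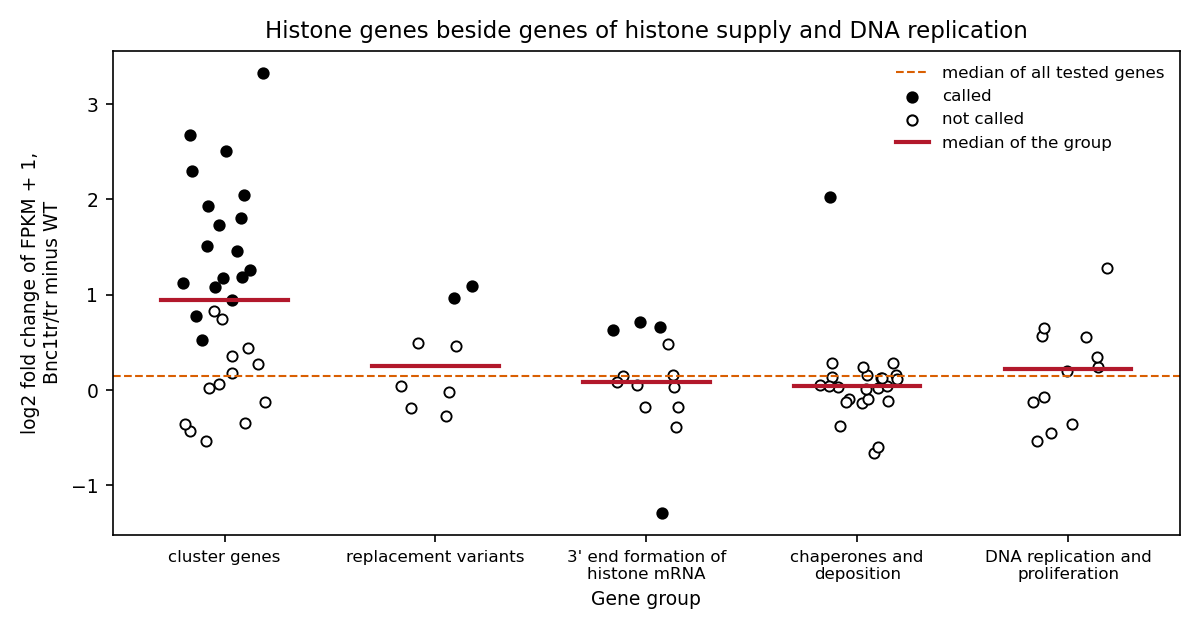
The log2 fold change of FPKM + 1, *Bnc1*tr/tr minus WT, of tested genes in 5 groups, filled where called, with the median of each group (red) and of all tested genes (dashed, 0.15). The cluster genes have the highest median, 0.94, against 0.25, 0.08, 0.04 and 0.22 in the replacement variants, 3′ end genes, chaperones and replication genes. Of the 31 cluster genes, 5 passed the filter only through *Bnc1*tr/tr, and 1 had a *Bnc1*tr/tr mean under 1 FPKM.

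Near-identical copies limit the reading of single cluster genes. At least 50% of the 31-base words were shared with other genes in 36 of 61 cluster genes and in 9 of the 18 called, and in 2 of 12 replacement variants. The 9 were *Hist1h2ao*, *Hist2h2aa1*, *Hist1h2bk*, *Hist2h3c2*, *Hist1h3g*, *Hist2h2bb*, *Hist1h2bm*, *Hist1h3c* and *Hist1h3f*. Of the called cluster genes, 5 shared under 25%: *Hist1h1a*, *Hist1h1d*, *Hist1h2ac*, *Hist1h4d* and *Hist4h4*.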

How the data were processed

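The authors deposited 1 table per library with FPKM per gene, to 2 decimals. The submitters' processing notes name HISAT2 2.0.4, Bowtie2 2.2.5, RSEM 1.2.12 and GRCm38.p6, with no role or order. Fragment counts and library totals were not used here. The spacing of low values gave a depth estimate that entered no test. FPKM is relative to the library, and PCR copies without molecular identifiers are not independent molecules, so depth limits cover counting error only.

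Groups followed the genotype labels. Genes that averaged 1 FPKM or more in the 6 libraries were compared with limma 3.58.1 (R 4.3.3) on log2(FPKM + 1), which understates the change of low genes, with Benjamini-Hochberg adjustment over all 10560 tested genes. Calls needed an adjusted p below 0.05 and a log2 fold change above 0.5 in size. The fit was tested on simulated data.

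The members and the 10 gene lists were chosen with earlier results of these data known. Named genes were every replacement member, the 12 cluster members with the largest mean FPKM and every called one. Members of the other lists were named where called, and others named there (*Foxl2*, *Amhr2*, *Lhcgr*, *Serpine2*, *Inha*, *Kdr*, *Tek*, *Cdh5*, *Tyrobp*, *Lyz2*, *C1qa*, *C1qb*, *Cd3e*, *Adgre1*, *Ptprc*, *Csf1r*, *Slbp*, *Atrx*, *Mcm6*, *Ccne1*, *Mki67*, *E2f1*, *Ccna2*, *H1foo*, *Cenpa*), as well as *Hist1h4i*, *Hist1h3e*, *Hist1h1b*, *Hist1h1c*, *Hist1h1t*, *Hist1h2be*, *Hist1h2bq* and *Hist1h2br*, were picked after their values were seen. Cell type markers that were not listed were all named. Stem-loops (pattern a 6-base stem with a 4-base loop, with C or T and A or G free in the stem) and shared 31-base words came from GENCODE M21, promoters from RefSeq GRCm38.p6 (67 members matched). Alternatives were another pseudocount (0.1), no filter, 3 scalings, a replicate block, trend and robust variances, a length correction alone and with the block, and leaving out each library. Figures were drawn with matplotlib 3.10.9.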

Additional observations from a re-analysis of the deposited data

How the results depend on the processing

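Called cluster genes, higher and lower together, numbered 18 and under the alternatives 14 to 18, and from 12 (without *Bnc1*tr/tr replicate 2, 11 higher and 1 lower) to 17 on leaving out a library. Called genes of the whole table ranged from 2390 to 3597 on leaving out a library, against 3358. Called replacement variants were 2, and 1 with no filter on low values (17574 genes were then adjusted over), and 1 to 4 on leaving out a library. The log2 ratio of the cluster sums, 0.32, was 0.042 with upper-quartile and 0.097 with median-ratio scaling and 1.08 without *Hist1h2bc*, and that of the replacement sums, 0.059, was -0.23 and -0.17 with these scalings, which divide each library by a factor. Of 20 named genes with an adjusted p under 0.05, 12 kept it in every alternative fitted, among them *Hist1h3c*, which was under the filter without *Bnc1*tr/tr replicate 2.

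Signs turned in genes that were not called. *H3f3b* was at -0.23 with upper-quartile and -0.18 with median-ratio scaling, and -0.05 to 0.23 on leaving out a library. *H3f3a* was at 0.073 with quantile normalization and 0.02 with the length correction, alone or with the block, and -0.11 to 0.067 on leaving out a library. *H2afx* was at -0.70 to 0.0037 on leaving out a library. *Hist1h4h* was at -0.21, -0.15 and -0.098 with upper-quartile, median-ratio and quantile scaling, -0.24 with the length correction, alone or with the block, and -0.034 to 0.23 on leaving out a library. *Hist1h2aa* was at -0.00025 with the length correction, alone or with the block. Apart from scaling, whose effect is its own construction, the cause was not tested. Of 429 alternative values for 29 named genes, 360 kept direction and side of the threshold, 38 lost and 12 gained an adjusted p under 0.05 and 19 turned.

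Replicate numbers were checked for pairing. Deviations of same-numbered libraries correlated at 0.278, -0.0344 and 0.124, and those of differently numbered libraries at -0.254 to 0.161. With so few libraries this cannot decide whether same-numbered libraries are paired, and the main fit has no block. With the replicate block 3733 genes were called, 18 of them cluster and 2 replacement members, and *H2afj* then had an adjusted p of 0.048 at 0.49. Depth limits the 30 cluster genes with a mean under 1 FPKM, a value near that of 3 fragments on a short transcript.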
